A study of Mus musculus with 16 samples.

Results

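Chromatin remodellers and histone methyltransferases, with the acetyltransferases, demethylases and corepressor that work beside them, were followed as a set of 36 genes out of 24946 genes measured. The genes were chosen by symbol as large chromatin regulators with long mRNAs: 6 H3K4 methyltransferases, 2 SET proteins without settled enzyme activity, 3 H3K36 methyltransferases, 3 H3K9 and H3K27 methyltransferases, 2 acetyltransferases, 8 CHD remodellers, 7 SWI/SNF subunits, the p400 remodeller with the N-CoR corepressor, and 2 demethylases with Tet3. All 36 were present in both tables and passed the minimum level for testing. The samples were neural stem cells (NSCs) of the V-SVZ, the germinal zone that lines the lateral ventricle of the brain, grown from neonatal mice that were Tsc2 mut/mut (4 cultures) or Tsc2 wt/wt (4 cultures). Tsc2 encodes tuberin, a brake on the growth kinase complex mTORC1. Mutant alleles were recombined by tamoxifen-inducible Nestin-CRE-ERT2, a Cre active in Nestin-expressing progenitors, with a tdTomato reporter of recombination. The labels and methods do not settle whether Cre was also present in wild-type cultures. Every culture was expanded with FGF and EGF, passaged once and treated with cycloheximide for 15 min, and each gave a total RNA and a polyribosomal RNA library, so 4 groups of 4 libraries were compared. Polyribosomal RNA was the RNA in the heaviest 3 mL of a 17.5% to 50% sucrose gradient, and its ratio to total RNA was the study's measure of translational efficiency. Cultures are called mutant 1 to 4 and wild-type 1 to 4, and a number shared by a mutant and a wild-type culture does not pair them.

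DNA in the nucleus is wound on histones, and the enzymes in this set write, remove or read chemical marks on histone tails, or use ATP to slide and evict nucleosomes. Methylated H3K4, a lysine in the tail of histone H3, marks active promoters and enhancers, methylated H3K36 marks transcribed gene bodies, and methylated H3K9 and H3K27 mark silent chromatin. In the nervous system many of these genes are dosage sensitive, and loss of a single copy of several of them causes human neurodevelopmental disorders.

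The mRNAs of the set were long and varied in base composition. In the GENCODE M21 annotation of GRCm38, the transcript with the longest coding sequence of each gene had a median length of 8268.5 bases over the 36 genes, against 3025 bases over 13599 tested genes with a transcript. Kmt2d was the longest (19823 bases) and Ezh2 the shortest (2787 bases), and 33 of the 36 exceeded 5500 bases. The share of G and C in the coding sequence ranged between 43.9% and 61.8%, with a median of 52.3%, against a median of 53.3% over all tested genes. The middle 90 coding bases of 8 members are shown because base composition is the sequence feature that the efficiency values below ran along. They belong to the 4 members with the lowest and then the 4 with the highest efficiency change in mutant cultures. Capitals mark G or C at the last base of a codon, where many changes leave the amino acid as it is.
Setd1b: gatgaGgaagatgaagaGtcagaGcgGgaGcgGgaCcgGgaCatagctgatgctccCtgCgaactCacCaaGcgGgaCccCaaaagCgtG
Kdm6b: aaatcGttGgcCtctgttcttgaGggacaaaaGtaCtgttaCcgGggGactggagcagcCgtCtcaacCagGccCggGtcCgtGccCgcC
Setd1a: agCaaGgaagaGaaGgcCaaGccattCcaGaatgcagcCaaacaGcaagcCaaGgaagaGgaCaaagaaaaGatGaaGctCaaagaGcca
Kmt2b: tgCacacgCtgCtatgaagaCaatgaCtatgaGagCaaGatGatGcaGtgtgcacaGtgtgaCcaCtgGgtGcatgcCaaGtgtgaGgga
Setd2: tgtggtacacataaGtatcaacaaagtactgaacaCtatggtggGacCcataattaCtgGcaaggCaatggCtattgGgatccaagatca
Kmt2c: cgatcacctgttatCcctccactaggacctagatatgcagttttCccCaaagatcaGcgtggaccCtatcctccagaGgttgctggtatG
Nsd1: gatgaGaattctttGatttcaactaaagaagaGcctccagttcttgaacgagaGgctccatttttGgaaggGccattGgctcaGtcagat
Smarca2: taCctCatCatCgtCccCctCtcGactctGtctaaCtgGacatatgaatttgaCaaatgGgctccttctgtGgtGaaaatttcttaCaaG
In each of the first 4 windows 19 of 30 last codon bases were G or C, against 9 in Setd2, 7 in Kmt2c, 8 in Nsd1 and 17 in Smarca2. Over all 90 bases the windows were less distinct. G and C numbered 54 in Setd1b, 55 in Kdm6b, 43 in Setd1a and 46 in Kmt2b, against 38 in Setd2, 46 in Kmt2c, 39 in Nsd1 and 39 in Smarca2. The windows lie at chr5:123157217-123157394 (Setd1b, plus strand, over 2 exons), chr11:69404932-69405021 (Kdm6b, minus), chr7:127786652-127787194 (Setd1a, plus, over 2 exons), chr7:30580446-30580535 (Kmt2b, minus), chr9:110550881-110550970 (Setd2, plus), chr5:25313279-25313368 (Kmt2c, minus), chr13:55261613-55261702 (Nsd1, plus) and chr19:26676775-26678382 (Smarca2, plus, over 2 exons) of GRCm38.

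The deposited values were read counts normalized by the authors, given below as normalized reads. They summed to 65.6 to 73.7 M per total RNA library and 87.4 to 101 M per polyribosomal library, from an estimated 24.7 to 139 M and 52.1 to 267 M reads. NSC markers were high in every culture, with Nes at 55291 to 72230 normalized reads of total RNA in mutant and 44546 to 70622 in wild-type cultures. Tsc2 had 5592 to 7076 in mutant and 6232 to 7836 in wild-type cultures, and the sum over the whole gene does not check the deletion. In mutant total RNA 8 of 8 oligodendrocyte markers and 5 of 8 astrocyte markers were higher (median log2 change 1.66 and 0.60), and 12 of 16 proliferation genes were lower (median -0.67). Of the tested markers of other cell types, 4 of 6 endothelial and mural (median 0.77), 2 of 5 choroid plexus (1.35), 3 of 11 microglial (0.83), 1 of 9 neuronal (0.40) and 1 of 3 ependymal (0.07) markers were higher there and 0 were lower. Microglial markers summed to 14960 and 8713 normalized reads in mutant 2 and 4, above the 2502 and 3749 of mutant 3 and 1 and the 2052 to 3373 of wild-type cultures. The 4 Y-linked genes averaged 10.1, 3.71, 2.22 and 1.00 on the log2 scale in mutant cultures 1 to 4, against 9.92, 10.2, 10.4 and 5.94 in wild-type cultures 1 to 4, so Y-linked expression was uneven between the genotypes. In bulk cultures fewer cells of a type and less RNA per cell cannot be told apart. The part of other cell types, proliferation and sex-linked expression in the members' changes was not tested, except where a value is given.

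Total RNA of the set was more often higher than lower in mutant NSCs, though not once a trend with transcript length was removed. The set's association with polyribosomes was more often lower. In total RNA 13 members were higher and 2 lower among 36, beside 40.3% of all 14967 tested genes called (19.7% higher and 20.7% lower). The members' median log2 change in total RNA was 0.21, against 0.01 over all genes. In polyribosomal RNA 1 member was higher and 4 were lower, beside 23.6% of 14412 genes called (11.7% higher and 11.9% lower), with a median of 0.00 against 0.01 over all genes. In translational efficiency 8 members were lower and 0 higher by limma, beside 13% of 14333 genes called (7.89% lower and 5.07% higher). At an unadjusted p under 0.05, 12 members were lower and 2 higher there, beside 2291 lower and 1955 higher of the 14333 genes. The members' median log2 change in efficiency was -0.17, against 0.01 over all genes. Setd1b and Tet3 were called in both, higher in total RNA and lower in efficiency. Total RNA is the denominator of efficiency, so these 2 calls are not independent, and neither gene was called in polyribosomal RNA. Changes are log2 of (value + 1), mutant minus wild type, called at a Benjamini-Hochberg adjusted p under 0.05 in limma over all tested genes, and ± beside a change is its standard error. With library size as the only scaling, which put the median change of all genes at 0.13 in polyribosomal and 0.11 in total RNA in place of 0.01 in both, 5 members were higher and 1 lower in polyribosomal RNA and 17 higher and 1 lower in total RNA. All genes then split 2583 higher to 929 lower in polyribosomal and 3833 to 2263 in total RNA, in place of 1690 to 1713 and 2944 to 3091, while in efficiency 8 members were again lower. When the Y-linked level entered the fit as a covariate, 1 member was called in total RNA (Chd3, adjusted p = 0.0457 by limma). All genes called there numbered 528 higher and 535 lower. In polyribosomal RNA 0 members were called, beside 26 higher and 17 lower genes, and in efficiency 0 members and 0 genes. At an unadjusted p under 0.05, 3 members were higher and 1 lower in polyribosomal RNA, beside 1837 and 1620 genes. In efficiency 0 were higher and 7 lower, beside 1149 and 1065 genes.

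**Figure D1:**
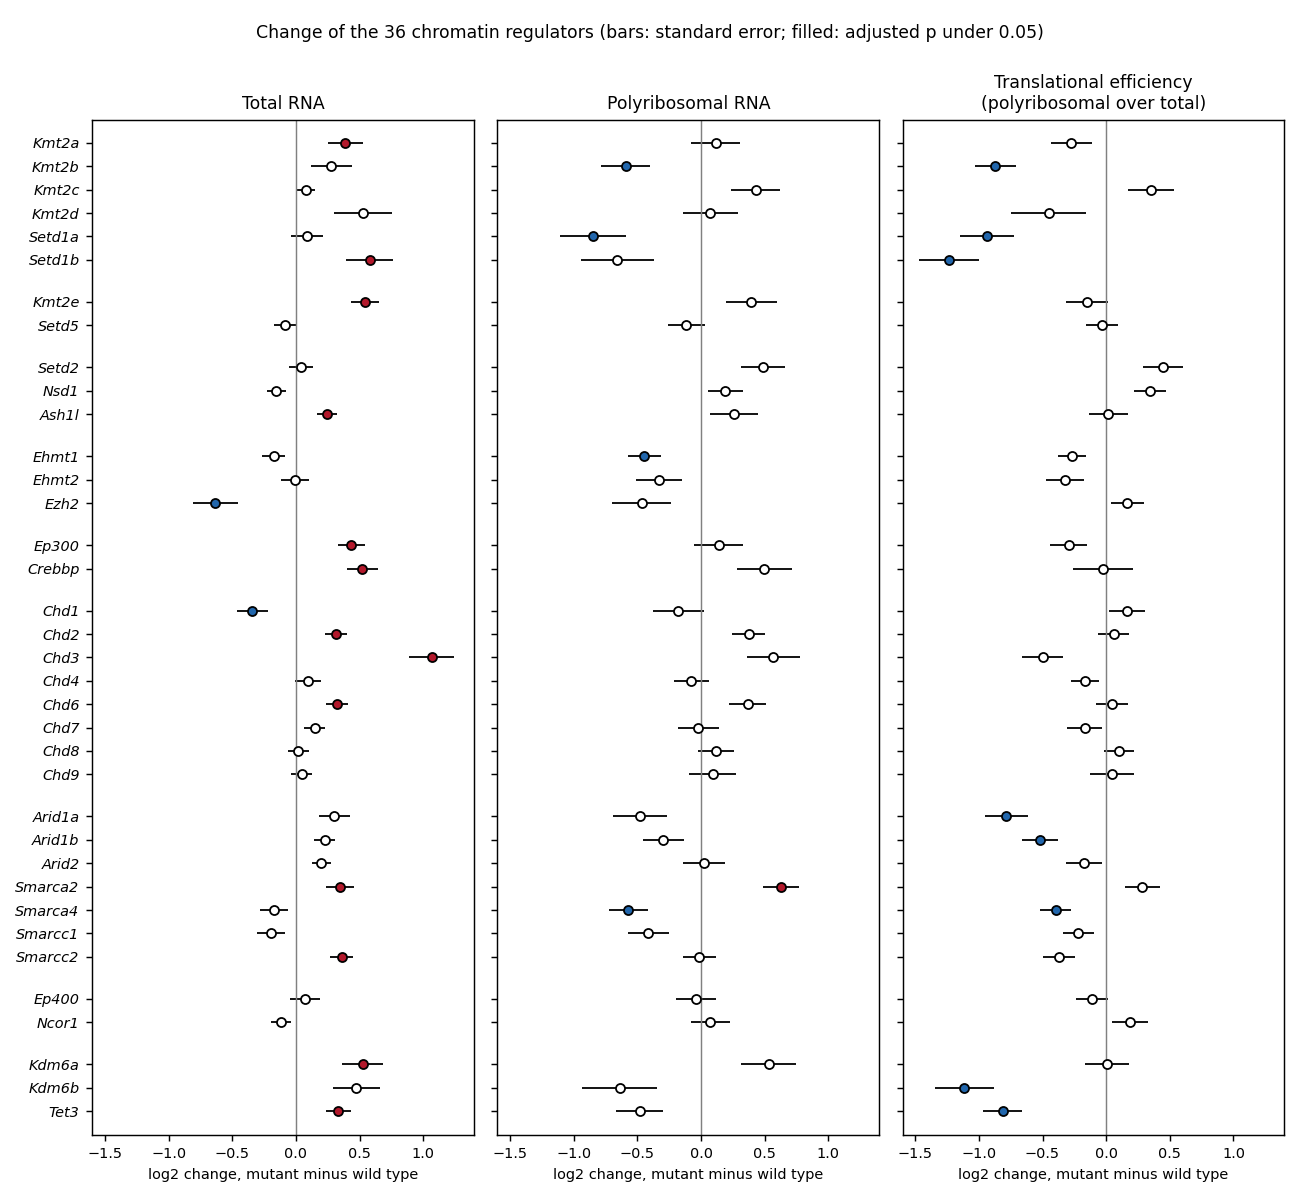
Log2 change, mutant minus wild type, of each of the 36 members in total RNA, polyribosomal RNA and translational efficiency, with bars for the standard error and filled points for calls by limma at an adjusted p under 0.05. Points for total RNA lie mostly right of 0 (13 higher, 2 lower) and the 8 efficiency calls all lie left of 0.

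Among the H3K4 methyltransferases, efficiency was lower in mutant NSCs for Setd1a, Setd1b and Kmt2b, and total RNA was higher for Kmt2a and Setd1b. Setd1a and Setd1b are the catalytic subunits of the COMPASS complexes that lay down most H3K4 trimethylation. Kmt2b (MLL2) acts with Kmt2a (MLL1) in the trithorax branch, and Kmt2c and Kmt2d (MLL3 and MLL4) monomethylate H3K4 at enhancers.

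Setd1b had 2023, 1562, 2257 and 1486 normalized reads of total RNA in mutant cultures 1 to 4, against 1591, 1091, 917 and 1339 in wild-type cultures 1 to 4. Its polyribosomal RNA was 1252, 1904, 2342 and 839.8 in mutant and 3139, 2146, 2269 and 1897 in wild-type cultures. The polyribosomal to total ratio was 0.619, 1.22, 1.04 and 0.565 in mutant and 1.97, 1.97, 2.47 and 1.42 in wild-type cultures. Both RNA fractions overlapped between genotypes, while the ratio was below every wild-type culture in all 4 mutant cultures, with mutant 1 and 4 lowest. Total RNA differed by 0.58 ± 0.19 (limma adjusted p = 0.0332), polyribosomal RNA differed by -0.66 ± 0.28 (adjusted p = 0.111) and efficiency by -1.23 ± 0.23 (adjusted p = 0.0077), the lowest efficiency change of the set. The total RNA call of Setd1b was lost without mutant 1 or 3 or wild-type 2 or 3 (adjusted p = 0.0830 to 0.0871), and its polyribosomal RNA passed without mutant 3 (-0.88, adjusted p = 0.0415).

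Setd1a had 5059, 4990.5, 4044 and 3969 normalized reads of total RNA in mutant cultures, against 5216, 4089.7, 3586 and 4158 in wild-type cultures, so the groups overlapped. Its polyribosomal RNA was 4913, 6178, 5501 and 2381 in mutant and 9444, 8278, 8372 and 6412 in wild-type cultures, with every mutant culture below every wild-type culture. The ratio did not overlap either, at 0.971, 1.24, 1.36 and 0.60 in mutant and 1.81, 2.02, 2.33 and 1.54 in wild-type cultures. Total RNA differed by 0.09 ± 0.13 (limma adjusted p = 0.606), polyribosomal RNA by -0.85 ± 0.26 (adjusted p = 0.0363) and efficiency by -0.94 ± 0.21 (adjusted p = 0.0135). The efficiency call of Setd1a was lost without mutant 1 (adjusted p = 0.0511), wild-type 1 (0.0631) or wild-type 3 (0.0523), at changes of -0.93, -0.96 and -0.84.

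Kmt2b had a ratio of 0.684, 0.814, 0.895 and 0.565 in mutant cultures, against 1.23, 1.37, 1.72 and 1.09 in wild-type cultures. Polyribosomal RNA of Kmt2b was 2973, 2945, 3257 and 1771 normalized reads in mutant and 4998, 3803, 4049.9 and 3389 in wild-type cultures. Neither measure overlapped between genotypes, whereas total RNA did, at 4346, 3617, 3641 and 3136 in mutant and 4053, 2783, 2350.1 and 3120.0 in wild-type cultures. Efficiency was lower (-0.87 ± 0.16, limma adjusted p = 0.0064) and so was polyribosomal RNA (-0.59 ± 0.19, adjusted p = 0.0433), while total RNA differed by 0.28 ± 0.16 (adjusted p = 0.182). The efficiency call of Kmt2b and Setd1b held without each culture in turn. The polyribosomal calls of Kmt2b and Setd1a did not, with adjusted p values up to 0.116 and 0.0934, both without wild-type 1.

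Kmt2a was higher in total RNA (0.39 ± 0.14, limma adjusted p = 0.0470), a call lost without mutant 1 or 3 or wild-type 2, 3 or 4 (adjusted p = 0.0933 to 0.123). Its ratio was among the lowest of the set, at 0.175 to 0.306 in mutant and 0.226 to 0.332 in wild-type cultures. Kmt2c and Kmt2d passed no test, with efficiency changes of 0.35 ± 0.18 and -0.45 ± 0.29. The ratio of Kmt2d spread widely within both genotypes, from 0.601 to 1.62 in mutant and from 0.886 to 1.84 in wild-type cultures, and without mutant 2 its efficiency passed the test (-0.72, adjusted p = 0.0380).

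**Figure D2:**
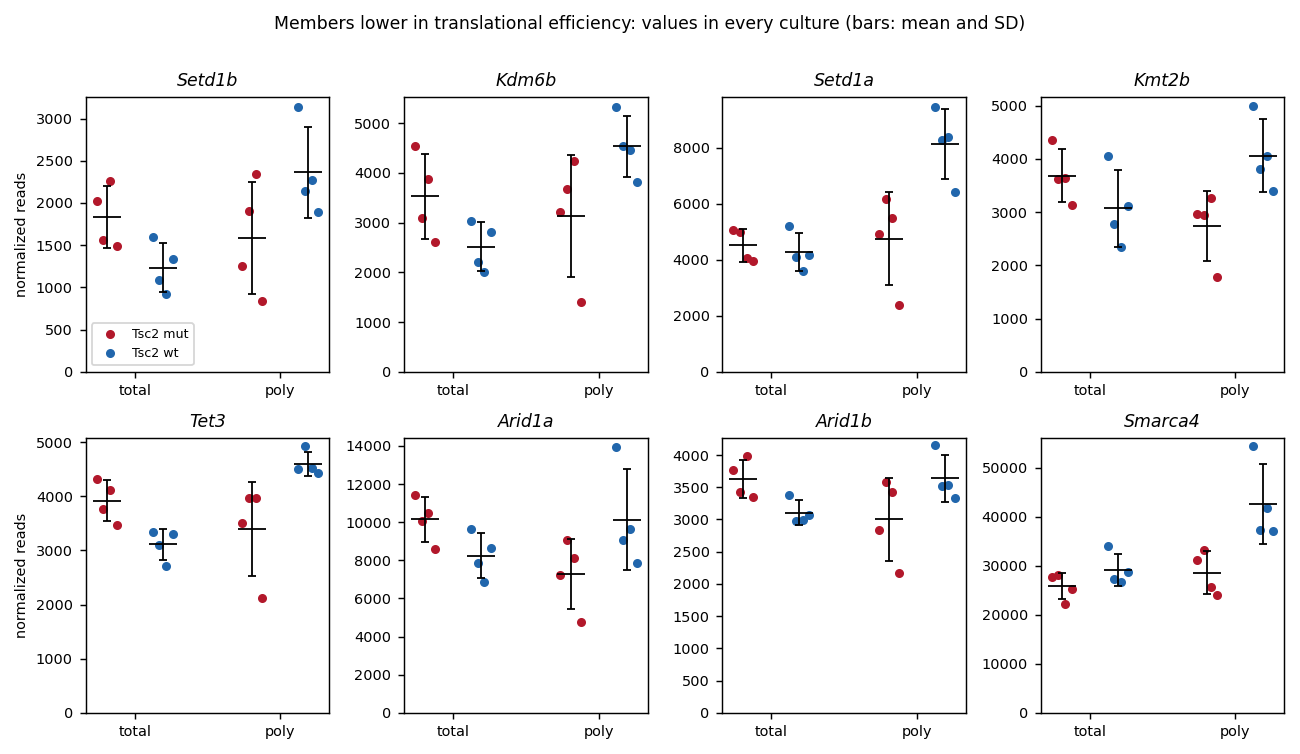
Normalized reads of total RNA and polyribosomal RNA (axis from 0, 1 panel a gene) in each of 4 mutant (red, left of each pair) and 4 wild-type (blue, right) cultures for the 8 members called lower in translational efficiency, with points for cultures and bars for the mean and SD. In polyribosomal RNA every mutant culture lies below every wild-type culture for Setd1a, Kmt2b, Tet3 and Smarca4, whereas the groups overlap for Setd1b, Kdm6b, Arid1a and Arid1b.

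Of the SET proteins without settled enzyme activity, Kmt2e was higher in total RNA and Setd5 passed no test. Kmt2e (MLL5) binds trimethylated H3K4 through its PHD finger. It had 4014, 3539, 4769 and 3493 normalized reads of total RNA in mutant cultures, against 2929, 2595, 2544 and 2702 in wild-type cultures. All 4 mutant cultures were above all wild-type cultures, mutant 3 the furthest (0.54 ± 0.11, limma adjusted p = 0.00524). Polyribosomal RNA was 1470.4, 2176, 1958 and 1244 in mutant and 1702, 1128, 1136 and 1192 in wild-type cultures, overlapping because of wild-type 1 (0.40 ± 0.20, adjusted p = 0.162). Its efficiency differed by -0.15 ± 0.17 (adjusted p = 0.576). Setd5, a chromatin protein linked to intellectual disability in humans, changed by -0.08 ± 0.09 in total RNA and -0.03 ± 0.13 in efficiency.

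The H3K36 methyltransferases had positive efficiency estimates in all 3 genes, none past the threshold. Setd2, the enzyme that trimethylates H3K36 in mammalian somatic cells, had 1496, 2299.8, 1499 and 1667 normalized reads of polyribosomal RNA in mutant cultures, against 1466, 997, 1273 and 1196 in wild-type cultures. The groups did not overlap, although mutant 1 barely exceeded wild-type 1. Total RNA of Setd2 was 3864, 4414, 4044 and 3937 in mutant and 3516, 4025, 4503 and 3804 in wild-type cultures. Its ratio was 0.387, 0.521, 0.371 and 0.424 in mutant and 0.417, 0.248, 0.283 and 0.314 in wild-type cultures, the overlap coming from wild-type 1. Setd2 changed by 0.49 ± 0.17 in polyribosomal RNA (limma adjusted p = 0.0586) and by 0.45 ± 0.16 in efficiency (adjusted p = 0.0711), the highest efficiency estimate of the set, and without wild-type 1 its efficiency passed the test (0.59, adjusted p = 0.00366). Nsd1, which dimethylates H3K36, followed at 0.34 ± 0.12 (adjusted p = 0.0734, and 0.0175 without wild-type 1). Ash1l, also an H3K36 methyltransferase, was higher in total RNA (0.24 ± 0.08, adjusted p = 0.0331), with 4425 to 4888 normalized reads in mutant and 3595 to 4300.2 in wild-type cultures. That call was lost without any single culture other than wild-type 3 (adjusted p = 0.0528 to 0.10).

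Among the silencing methyltransferases, Ezh2 was lower in total RNA and Ehmt1 was lower in polyribosomal RNA. Ezh2, the catalytic subunit of Polycomb repressive complex 2 (PRC2), methylates H3K27 and is known to be higher in dividing cells. It had 4664, 6903, 3594 and 5863 normalized reads of total RNA in mutant cultures, against 8261, 7358, 8682 and 7443 in wild-type cultures. No culture overlapped, and mutant 3 and 1 were lowest (-0.63 ± 0.17, limma adjusted p = 0.0176, and 0.0507 without mutant 1). Polyribosomal RNA of Ezh2 was 3749, 5596, 2611 and 5537 in mutant and 7119.7, 5583, 6018 and 4617 in wild-type cultures (-0.47 ± 0.23, adjusted p = 0.156), and efficiency differed by 0.17 ± 0.13 (adjusted p = 0.409). The proliferation list moved the same way in total RNA, with a mean log2 value of 12.9 to 13.9 in mutant and 13.9 to 14.2 in wild-type cultures and 12 of 16 genes lower. Its part in the Ezh2 value was not tested.

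Ehmt1 (GLP) and Ehmt2 (G9a) form the heterodimer that dimethylates H3K9. Ehmt1 had 2694, 3272, 2518 and 2633 normalized reads of polyribosomal RNA in mutant cultures, against 4374, 3492, 3603 and 3646 in wild-type cultures. Its ratio was 0.714, 0.768, 0.718 and 0.691 in mutant and 0.919, 0.899, 0.805 and 0.862 in wild-type cultures. Neither overlapped, whereas total RNA did, at 3771, 4259.7, 3506 and 3811 in mutant and 4759, 3884, 4473 and 4229 in wild-type cultures. Polyribosomal RNA was lower (-0.44 ± 0.13, limma adjusted p = 0.0304), and efficiency did not pass the test (-0.27 ± 0.11, adjusted p = 0.118). Leaving out any culture but mutant 2 or mutant 4 lost the polyribosomal call (adjusted p = 0.0551 to 0.0764). Ehmt2 had the highest ratio of the 36 members in all 8 cultures, at 1.37 to 2.31 in mutant and 2.11 to 2.6 in wild-type cultures, and passed no test.

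Both acetyltransferases were higher in total RNA and neither was called in polyribosomal RNA or efficiency. Ep300 (p300) and Crebbp (CBP) are paralogous coactivators that acetylate H3K27 at enhancers. Ep300 had 4119, 4002, 4432 and 3357 normalized reads of total RNA in mutant cultures, against 3317, 2717, 2710.2 and 3017 in wild-type cultures. Crebbp had 1344, 1046, 1254 and 1014 in mutant and 905, 758, 728 and 842 in wild-type cultures. In both genes every mutant culture was above every wild-type culture (0.43 ± 0.11, limma adjusted p = 0.0109 for Ep300, and 0.52 ± 0.12, adjusted p = 0.00949 for Crebbp). Polyribosomal RNA overlapped, at 1563, 2337, 1998 and 1349.8 in mutant and 2088, 1327, 1606 and 1507 in wild-type cultures for Ep300 (0.14 ± 0.19, adjusted p = 0.630). For Crebbp polyribosomal RNA was 684, 1544, 1101 and 959 in mutant and 842, 624, 722 and 738 in wild-type cultures (0.50 ± 0.22, adjusted p = 0.112, and 0.0369 without mutant 1). The ratio of Crebbp ranged from 0.509 in mutant 1 to 1.48 in mutant 2, against 0.824 to 0.992 in wild-type cultures. Both total RNA calls held without each culture in turn.

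In total RNA the CHD remodellers Chd2, Chd3 and Chd6 were higher, Chd1 was lower, and Chd4, Chd7, Chd8 and Chd9 did not pass. No CHD gene was called in polyribosomal RNA or efficiency, where Chd2 and Chd3 came closest. Chd3 and Chd4 are the alternative ATPases of the NuRD complex, which couples remodelling to histone deacetylation. Chd3 had 2449.8, 1926, 2245 and 2095 normalized reads of total RNA in mutant cultures, against 1467, 872, 796 and 1132 in wild-type cultures. The lowest mutant culture was above the highest wild-type culture, and the means stood at a ratio of 2.04 (1.07 ± 0.18, limma adjusted p = 0.0033), the largest change of the set. Polyribosomal RNA of Chd3 was 1946, 1766, 2011 and 1137 in mutant and 1551, 1025, 952 and 1077 in wild-type cultures, with mutant 4 inside the wild-type range (0.57 ± 0.21, adjusted p = 0.0639). Its ratio was 0.795, 0.917, 0.896 and 0.543 in mutant and 1.06, 1.18, 1.20 and 0.952 in wild-type cultures without overlap, and efficiency was at the edge of the threshold (-0.50 ± 0.16, adjusted p = 0.0511). Without mutant 2 or wild-type 1 the Chd3 efficiency passed (-0.58, adjusted p = 0.0419, and -0.51, adjusted p = 0.0262). Chd4 was far more abundant in total RNA than Chd3 per kilobase of transcript, at 5270 normalized reads per kilobase in mutant and 4983 in wild-type cultures, against 300.1 and 147 for Chd3, and changed by 0.09 ± 0.10.

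Chd2, which helps deposit histone H3.3 and whose loss causes childhood epilepsy in humans, had 4253, 4060.3, 4813 and 4070.2 normalized reads of total RNA in mutant cultures, against 3739, 3148, 3514 and 3392 in wild-type cultures. Polyribosomal RNA of Chd2 was 1912, 2002, 1872 and 1669.7 in mutant and 1426, 1361, 1642 and 1328 in wild-type cultures. Both fractions were separated, and they moved by similar amounts (0.32 ± 0.09, limma adjusted p = 0.0172, and 0.37 ± 0.13, adjusted p = 0.0524), leaving efficiency at 0.06 ± 0.12. Chd6 had 4905, 4445, 5085 and 4579.8 in total RNA of mutant cultures and 3943, 3514, 4142 and 3618 in wild-type cultures (0.32 ± 0.08, adjusted p = 0.0137). In polyribosomes Chd6 was at 1095, 1315, 1229.8 and 1167 in mutant and 1060.0, 822, 1032 and 835 in wild-type cultures (0.37 ± 0.14, adjusted p = 0.0799). Neither fraction of Chd6 overlapped, and its efficiency changed by 0.04 ± 0.13. Chd1, which binds trimethylated H3K4, was lower in total RNA (-0.34 ± 0.12, adjusted p = 0.0451), with overlapping cultures at 2773 to 4120.4 normalized reads in mutant and 3977 to 4741 in wild-type. The call of Chd1 was lost without any culture other than mutant 2 (adjusted p = 0.0530 to 0.115), and that of Chd2 without wild-type 2 (0.0556), while those of Chd3 and Chd6 held. Chd7 (mutated in CHARGE syndrome), Chd8 (a leading autism gene) and Chd9 differed by 0.15 ± 0.08, 0.02 ± 0.08 and 0.05 ± 0.08 in total RNA.

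**Figure D3:**
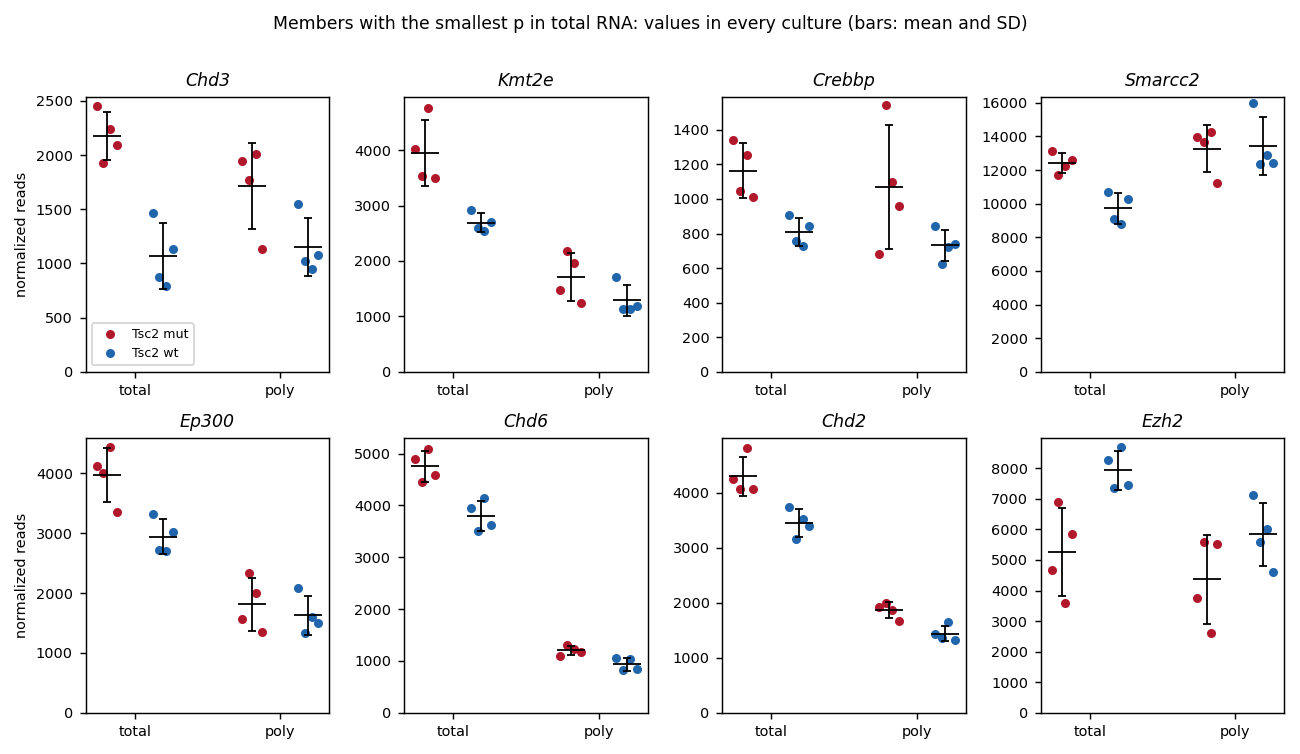
Normalized reads of total RNA and polyribosomal RNA (axis from 0, 1 panel a gene) in each of 4 mutant (red, left of each pair) and 4 wild-type (blue, right) cultures for the 8 members with the smallest p in total RNA, with points for cultures and bars for the mean and SD. Total RNA of Chd3 lies at 1926 to 2449.8 in mutant and 796 to 1467 in wild-type cultures, and Ezh2 is the 1 gene shown whose total RNA is lower in mutant cultures.

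SWI/SNF (BAF) complexes slide nucleosomes with one of a pair of ATPases, Smarca4 (BRG1) or Smarca2 (BRM), on a core of Smarcc1 and Smarcc2 with a targeting subunit such as Arid1a, Arid1b or Arid2. In mutant NSCs the ATPases went opposite ways in polyribosomal RNA, Smarca2 higher and Smarca4 lower. Smarca2 had 2482, 2627, 2488 and 3543 normalized reads of polyribosomal RNA in mutant cultures, against 1859, 1857, 1680.0 and 1734 in wild-type cultures. Its total RNA was 4024, 4092, 5208 and 5102 in mutant and 3167, 3893, 3542 and 3835 in wild-type cultures. Neither fraction overlapped, and mutant 4 was highest in polyribosomal RNA (0.63 ± 0.14, limma adjusted p = 0.0104, and for total RNA 0.35 ± 0.11, adjusted p = 0.0329). The polyribosomal call of Smarca2 held without each culture in turn, while its total RNA call was lost without mutant 3 or 4 or wild-type 1 or 3 (adjusted p = 0.0714 to 0.0833). With a Y-linked covariate the polyribosomal change was 0.51 (adjusted p = 0.142) and the total RNA change 0.17 (adjusted p = 0.369).

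Smarca4 had 31239.7, 33246, 25736 and 24048 normalized reads of polyribosomal RNA in mutant cultures, against 54393, 37190.0, 41795 and 36986 in wild-type cultures. Its ratio was 1.12, 1.19, 1.16 and 0.952 in mutant and 1.60, 1.36, 1.57 and 1.29 in wild-type cultures. Neither overlapped, and wild-type 1 was far above the rest in polyribosomal RNA. Total RNA of Smarca4 overlapped, at 27776, 27997, 22262 and 25252 in mutant and 33968, 27261, 26584 and 28639 in wild-type cultures (-0.17 ± 0.11, limma adjusted p = 0.213). Polyribosomal RNA was lower (-0.57 ± 0.15, adjusted p = 0.0202, and 0.0552 without wild-type 1 or 0.0511 without wild-type 3), and so was efficiency (-0.40 ± 0.12, adjusted p = 0.0366). The efficiency call was lost without mutant 1, 3 or 4 or wild-type 2 or 3 (adjusted p = 0.050 to 0.123). Per kilobase, Smarca4 had 4050 normalized reads of total RNA in mutant and 4566 in wild-type cultures, against 786 and 616 for Smarca2.

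Arid1a and Arid1b, mutually exclusive subunits of the same form of the complex, were both lower in efficiency. Arid1a had 7237, 9055, 8098 and 4756 normalized reads of polyribosomal RNA in mutant cultures, against 13948, 9084, 9617 and 7881 in wild-type cultures. Its total RNA was 11445, 10056, 10481 and 8595 in mutant and 9625, 7838, 6879 and 8657 in wild-type cultures. Each fraction overlapped, and neither total RNA (0.30 ± 0.12, limma adjusted p = 0.0695) nor polyribosomal RNA (-0.48 ± 0.21, adjusted p = 0.116) passed the threshold. Their ratio did not overlap, at 0.632, 0.901, 0.773 and 0.553 in mutant and 1.45, 1.16, 1.4 and 0.910 in wild-type cultures (-0.78 ± 0.17, adjusted p = 0.0103). Arid1b had a ratio of 0.752, 1.05, 0.861 and 0.647 in mutant and 1.23, 1.18, 1.18 and 1.08 in wild-type cultures, again without overlap (-0.52 ± 0.14, adjusted p = 0.0227). Its total RNA was 3766, 3429, 3987 and 3355 in mutant and 3382, 2976, 2990.3 and 3074 in wild-type cultures, and its polyribosomal RNA 2833, 3588, 3431 and 2171 in mutant and 4162, 3514, 3535 and 3334 in wild-type cultures. The Arid1a call held without each culture in turn, and the Arid1b call was lost without mutant 1 or 4 or wild-type 2 or 3 (adjusted p = 0.0553 to 0.0756).

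Smarcc2 (BAF170) had 13144, 11688, 12271 and 12602 normalized reads of total RNA in mutant cultures, against 10725, 9065, 8808 and 10276 in wild-type cultures, higher without overlap (0.36 ± 0.09, limma adjusted p = 0.0106). Its polyribosomal RNA was 13956, 13695, 14249 and 11214 in mutant and 15979, 12355, 12921 and 12429.5 in wild-type cultures (-0.01 ± 0.13, adjusted p = 0.950). The ratio of 1.06, 1.17, 1.16 and 0.890 in mutant and 1.49, 1.36, 1.47 and 1.21 in wild-type cultures did not overlap, and efficiency missed the threshold (-0.37 ± 0.13, adjusted p = 0.0580). Smarcc1 (BAF155), its paralog, differed by -0.20 ± 0.11 in total RNA, -0.42 ± 0.16 in polyribosomal RNA (adjusted p = 0.0766, and 0.0169 without mutant 2) and -0.22 ± 0.12 in efficiency. Arid2, of the PBAF form of the complex, differed by 0.20 ± 0.08 in total RNA (adjusted p = 0.0605) and -0.18 ± 0.14 in efficiency.

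Ep400, the p400 remodelling ATPase that exchanges histone H2A.Z, and Ncor1, a corepressor that recruits the deacetylase HDAC3, passed no test. Total RNA of Ep400 changed by 0.07 ± 0.12 and that of Ncor1 by -0.12 ± 0.08. Their efficiency changes were -0.11 ± 0.12 and 0.19 ± 0.14.

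The H3K27 demethylases Kdm6a (UTX) and Kdm6b (JMJD3), and Tet3, which oxidizes methylated cytosine in DNA, all had higher estimates in total RNA, called for Kdm6a and Tet3. Tet3 had 4324, 3773, 4125 and 3462 normalized reads of total RNA in mutant cultures, against 3337, 3100.0, 2714 and 3307 in wild-type cultures. Its polyribosomal RNA was 3506, 3965, 3966 and 2130.0 in mutant and 4508, 4936, 4533 and 4428 in wild-type cultures. The ratio was 0.811, 1.05, 0.962 and 0.615 in mutant and 1.35, 1.59, 1.67 and 1.34 in wild-type cultures. Tet3 was thus separated in all 3 measures, above wild type in total RNA (0.33 ± 0.10, limma adjusted p = 0.0243) and below it in polyribosomal RNA (-0.48 ± 0.18, adjusted p = 0.0737, not called) and in efficiency (-0.81 ± 0.15, adjusted p = 0.00704). The efficiency call held without each culture in turn, and the total RNA call was lost without mutant 1 or 3 or wild-type 2 or 3 (adjusted p = 0.0545 to 0.0743).

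Kdm6b had a ratio of 0.706, 1.19, 1.09 and 0.538 in mutant cultures, against 1.76, 2.05, 2.22 and 1.36 in wild-type cultures. Its total RNA was 4544, 3094, 3879 and 2599.8 normalized reads in mutant and 3032, 2215, 2007 and 2812 in wild-type cultures, and its polyribosomal RNA 3209.7, 3683, 4234 and 1399 in mutant and 5324, 4538, 4453 and 3817 in wild-type cultures. Only the ratio was without overlap, and efficiency was lower (-1.11 ± 0.23, limma adjusted p = 0.0113, and 0.0616 without wild-type 1). Total RNA (0.48 ± 0.19, adjusted p = 0.0634) and polyribosomal RNA (-0.64 ± 0.29, adjusted p = 0.134) did not pass. In total RNA Kdm6b passed without mutant 4 (adjusted p = 0.0269) or wild-type 1 (0.0441).

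Kdm6a is X-linked and is known to escape X inactivation. It had 1522, 2039, 2387 and 2001 normalized reads of total RNA in mutant cultures, against 1152, 1319.6, 1283 and 1773 in wild-type cultures. Mutant 1 fell below wild-type 4, the one overlap (0.52 ± 0.16, limma adjusted p = 0.0271). Xist, transcribed from the inactive X, was 62.7 in mutant 1 and 19983 to 24246 in mutant 2 to 4, against 37.0, 3527 and 68.9 in wild-type 1 to 3 and 24384 in wild-type 4, so mutant 2 to 4 and wild-type 4 had the highest Xist and the highest Kdm6a of their genotypes. With a Y-linked covariate the Kdm6a change was 0.19 (adjusted p = 0.393), and leaving out mutant 3 or 4 or wild-type 1, 2 or 3 also lost the call (adjusted p = 0.0566 to 0.0675). Polyribosomal RNA of Kdm6a was 482, 872, 788 and 714 in mutant and 603, 407, 394 and 559 in wild-type cultures (0.53 ± 0.21, adjusted p = 0.0878, and 0.0377 without mutant 1). Efficiency was 0.01 ± 0.18 (adjusted p = 0.987).

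The efficiency changes of the 36 members ran along the GC content of their coding sequences. Across genes, which are not independent replicates and share the same 16 libraries, Spearman's rho between efficiency change and coding GC was -0.85 (Pearson's r -0.84, n = 36), against -0.31 over 13599 tested genes and -0.70 over 2140 tested genes with a transcript of at least 5500 bases. GC at the last codon base gave -0.74 and GC of the 3′ untranslated region -0.40 (n = 35), against -0.63 and -0.59 over the tested genes of at least 5500 bases. Transcript length gave 0.24 within the set, -0.44 over all genes and 0.09 over those long genes. The 8 members called lower had coding GC of 56.6% to 61.8% (median 59.7%), and the other 28 had 43.9% to 61.2% (median 49.8%). Setd1b at 61.8% and Kdm6b at 61.7% stood at the GC-rich, low-efficiency end, and Setd2 at 43.9%, Kmt2c at 47.3% and Nsd1 at 47.4% at the other. The coding windows printed above are short and follow this only in part, more at the last codon base than over all bases. Coding GC ran the other way with the total RNA change of the members (rho 0.34), much as over 2215 tested genes of at least 5500 bases (0.35). With their polyribosomal change rho was -0.57, against -0.26 over 2141 such genes and 0.03 over all tested genes with a transcript.

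**Figure D4:**
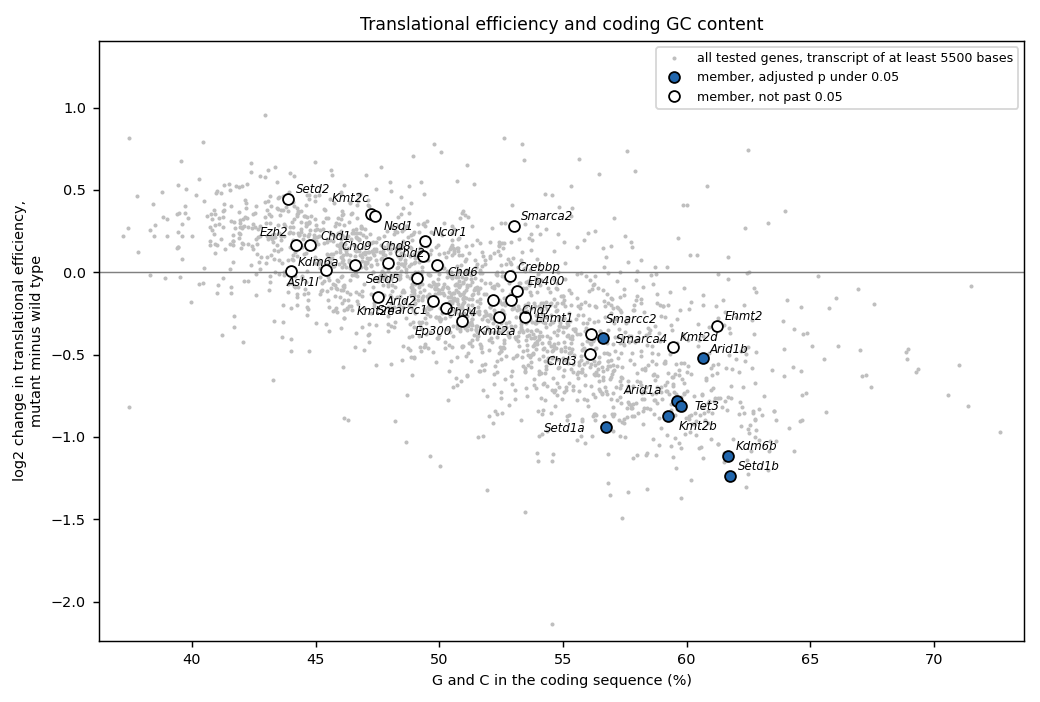
Change in translational efficiency (log2, mutant minus wild type) against GC content of the coding sequence in percent, for the 36 members (circles, filled where the adjusted p was under 0.05) over all tested genes with transcripts of at least 5500 bases (grey). The 8 members called lower lie at 56.6% to 61.8% GC, and under 48% GC the lowest member is Kmt2e at -0.15.

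The members' calls were read against all genes of the same length and GC. Of 516 tested genes with a transcript of at least 5500 bases and coding GC of at least 56%, 56.0% were lower in efficiency (median log2 change -0.59), and 8 of the 10 members in that class were lower (median -0.80). Chd3 and Kmt2d were the 2 members of the class that were not called. In total RNA the median change of that class was 0.33 over all genes and 0.32 over the 10 members. At 52% to 56% GC 25.9% of 495 long genes were lower but 0 of 7 members were, at 48% to 52% 5.06% of 514 and 0 of 7 members, and under 48% 0.65% of 615 and 0 of 9 members. The GC-rich, shorter members were Ehmt2 and Smarcc2, neither called. When the trends of each library with transcript length and coding GC were removed together, an alternative chosen after seeing the data, 3 members were lower and 2 were higher in efficiency, beside 442 lower and 385 higher genes in all. Setd1b (-0.66, limma adjusted p = 0.0307), Kdm6b (-0.59, adjusted p = 0.0398) and Tet3 (-0.35, adjusted p = 0.0367) remained lower, and Nsd1 (0.35, adjusted p = 0.0321) and Smarca2 (0.52, adjusted p = 0.0303) were higher. Kmt2b (-0.37, adjusted p = 0.0527) and Setd1a (-0.54, adjusted p = 0.0609) were just short of the threshold. Arid1a was not called either, and Arid1b and Smarca4 were both at -0.01. The members' median efficiency change was then -0.01. With the replicate number as a block in addition, Setd1b, Kdm6b and Setd1a were lower and Smarca2 was higher, and Tet3 and Nsd1 were not called.

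Within each culture the ratio was higher for GC-rich members, and over the members this correlation was lower in every mutant culture than in any wild-type culture. It uses the same genes and libraries as the correlation of efficiency change with coding GC above, and is not separate support for it. Spearman's rho between ratio and coding GC over the 36 members was 0.65, 0.71, 0.73 and 0.54 in mutant cultures 1 to 4, against 0.78, 0.82, 0.84 and 0.80 in wild-type cultures 1 to 4. Over all tested genes with a transcript the same rho overlapped between genotypes, at 0.45, 0.42, 0.41 and 0.26 in mutant and 0.32, 0.54, 0.57 and 0.51 in wild-type cultures, with wild-type 1 below 3 of the mutant cultures. The median log2 ratio of the 8 members called lower was -0.46, 0.16, -0.00 and -0.78 in mutant and 0.61, 0.56, 0.76 and 0.40 in wild-type cultures, so that every mutant culture was below every wild-type culture, which the choice of those members fixes. Since the 2 tables were normalized apart, ratios were also placed among the 14333 ratios of the same culture. The members' median percentile was 24.7, 30.6, 26.6 and 24.0 in mutant and 33.5, 27.3, 28.1 and 23.2 in wild-type cultures, and overlapped. Setd1b stood at a median percentile of 45.5 in mutant and 85.6 in wild-type cultures, Kdm6b at 49.7 and 84.2, Setd1a at 61.8 and 84.6, and Tet3 at 50.6 and 74.0. Kmt2b followed at 41.2 and 68.9 and Arid1a at 39.3 and 67.7. Members with low ratios in both genotypes were Kmt2a (3.20 and 6.08), Chd6 (4.32 and 3.85), Chd9 (11.7 and 11.6) and Kdm6a (10.6 and 8.44).

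**Figure D5:**
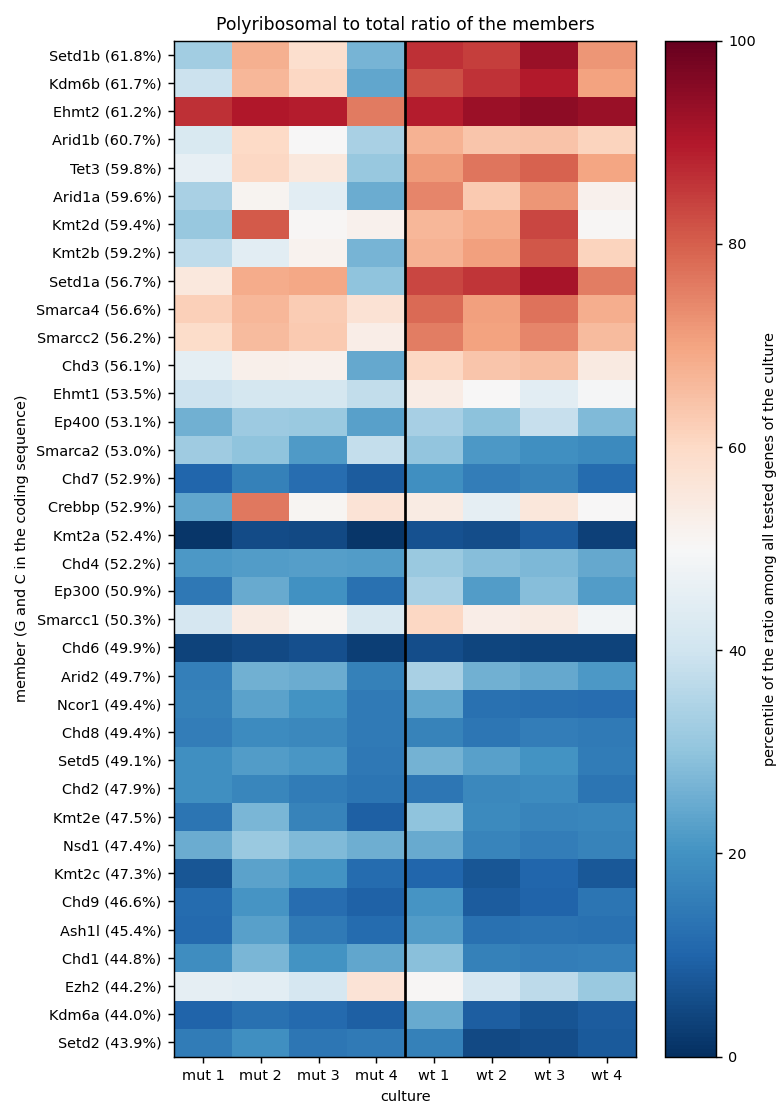
Percentile of each member's polyribosomal to total ratio among all tested genes of the same culture, as a color from 0 (blue) to 100 (red), with 1 row a member in order of coding GC content and columns for 4 mutant cultures (left of the black line) and 4 wild-type cultures (right). Setd1b has a median percentile of 45.5 in mutant and 85.6 in wild-type cultures, while Chd6 lies near the bottom in both genotypes.

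Genes for complex partners and related enzymes were more often lower than higher in total RNA. Of 138 tested partner genes 10 were higher and 41 lower in total RNA (median log2 change -0.13), or 7.25% and 29.7%, beside 19.7% and 20.7% of all genes. Of 139 in polyribosomal RNA 6 were higher and 29 lower, or 4.32% and 20.9%, beside 11.7% and 11.9% of all genes. In efficiency 2 of 138 were higher (Dpy30 and Tet1) and 17 lower, or 1.45% and 12.3%, beside 5.07% and 7.89% of all genes. The partner lists within these are short, and their counts are given as descriptions. Of 12 partners of the H3K4 methyltransferases, 0 were higher and 5 lower in total RNA by limma (6 of 12 at an unadjusted p under 0.05), among them the core subunits Wdr5 (-0.54 ± 0.10, adjusted p = 0.00488) and Rbbp5 (-0.29 ± 0.10, adjusted p = 0.0402) that Setd1a, Setd1b and the Kmt2 enzymes share. Wdr5 averaged 4299 ± 561 normalized reads in mutant and 6230 ± 470 in wild-type cultures (SD, n = 4 each). Hcfc1, which joins Setd1 complexes, was lower in polyribosomal RNA (-0.82 ± 0.20, adjusted p = 0.0135) and efficiency (-0.76 ± 0.16, adjusted p = 0.0105). Of the 10 PRC2 partners of Ezh2, 3 were higher and 4 lower in total RNA, and Ezh1, its paralog in non-dividing cells, was higher there (0.82 ± 0.23, adjusted p = 0.0185) and in polyribosomal RNA (0.71 ± 0.23, adjusted p = 0.0418). Dot1l, the H3K79 methyltransferase, was lower in efficiency (-0.86 ± 0.14, adjusted p = 0.00613), as was the remodeller Srcap (-0.84 ± 0.17, adjusted p = 0.00945). Of the 6 tested partners with a transcript of at least 5500 bases and coding GC of at least 56%, 5 were lower in efficiency, Hcfc1 and Dot1l among them. Among all 516 tested genes of that class 56.0% were lower. Of the other 132 partners 12 were lower, Srcap among them.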

How the data were processed

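Poly(A)-selected RNA of 8 NSC cultures was sequenced in pairs with an unstranded kit, which leaves genes that overlap another gene uncertain. The authors aligned trimmed reads to mm10 with STAR and scaled them with DESeq2, and the deposited values are a signal (normalized reads per gene), in a separate table of 8 libraries for each fraction. No source used here names the read counter or its annotation. Low values lay within 0.1 of a whole multiple of what 1 read is worth for 84.7% to 93.4% (total RNA) and 60.7% to 90.4% (polyribosomal RNA) of values per library, so whole reads were not recovered and no count model was run. Depth is the sum of a library over the worth of 1 read. Of 24972 rows, 26 with date-like names were dropped.

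Tests used limma (version 3.58.1, R 4.3.3) on log2(value + 1), which understates changes of low genes, with a variance trend, robust moderation and Benjamini-Hochberg adjustment over all genes with a mean of at least 10. Each fraction was fitted by genotype. Efficiency was the interaction of genotype and fraction over 16 libraries with culture as a fixed effect, where constants of the separate tables cancel. Libraries of 1 culture share a code in the labels, and their deviations from group means correlated at 0.233 to 0.731. No source ties cultures to litters, and the spread that p-values measure is that between cultures. The fits were tested on simulated data. Lengths and GC come from the GENCODE M21 transcript with the longest coding sequence (20608 symbols, 39 by an older symbol), and sequences from GRCm38, the same build as mm10, read with Python 3.11.15. Alternatives were another pseudocount, other filters, scalings and moderation, a replicate block, a Y-linked covariate, removal of length and GC trends, and cultures left out. The members and all lists were chosen with earlier results of these data known. Values in every library are given for members with the smallest p in each comparison (up to 8 each), Kdm6a, Ezh2 and members called in opposite directions. Up to 4 genes of each partner list by smallest polyribosomal p could be named, and Dpy30 and Tet1 were named after their values were seen.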

Additional observations from a re-analysis of the deposited data

Results flagged for a closer look

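Each group of 4 cultures was examined for a culture that stood apart from the other 3, for the 20 members given in every library. Of 120 groups 5 held such a culture, and chance alone gives about 1 in 20. Wild-type culture 1 stood apart in 4 of them. Its Kdm6a polyribosomal to total ratio was 0.524, against 0.308 to 0.316 in the other wild-type cultures. Its Kmt2e polyribosomal RNA was 1702 normalized reads, against 1128 to 1192, and its Kmt2e ratio was 0.581, against 0.435 to 0.447. Its Smarcc2 polyribosomal RNA was 15979 normalized reads, against 12355 to 12921. Mutant culture 4 stood apart in Smarca2 polyribosomal RNA, at 3543 normalized reads against 2482 to 2627 in the other mutant cultures. The cause was not tested.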

How the results depend on the processing

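Across 24 alternatives, 5 of them chosen after seeing the data, no change of sign occurred in a called member. Leaving out each culture in turn, members called higher and lower numbered 7 to 15 and 0 to 2 in total RNA, 1 to 4 and 0 to 6 in polyribosomal RNA, and 0 to 3 and 5 to 10 in efficiency. All genes called then numbered 2075 to 3232 higher and 2115 to 3416 lower in total RNA, 985 to 1981 and 892 to 2105 in polyribosomal RNA, and 187 to 1496 and 439 to 1786 in efficiency. The member calls that held without each culture in turn were 6 of 15 in total RNA, 1 of 5 in polyribosomal RNA and 4 of 8 in efficiency. The same share over all called genes was not computed, so these counts do not set the members apart from other genes. Efficiency calls in limma numbered 0 members and 0 genes in either direction without moderation options (robust and trend), with the Y-linked covariate, and without mutant 1 and 3 together. At an unadjusted p under 0.05 members lower in these settings numbered 11, 7 and 11, beside 2161, 1065 and 2052 genes. Members higher numbered 2, 0 and 4, beside 1819, 1149 and 1198 genes. Members lower in total RNA numbered 1, in place of 2, without the filter on low values, with library size alone, quantile normalization, no moderation options, or the GC trend removed with or without the block. All genes lower numbered 2734 without the filter, 2263 with library size alone and 3204 with quantile normalization, in place of 3091. With the Y-linked covariate total RNA called 1 member higher and 0 lower (12 and 1 at unadjusted p) and 528 and 535 genes, and polyribosomal RNA 0 and 0 members (3 and 1 at unadjusted p) and 26 and 17 genes. Without mutant 1 and 3, total RNA called 2 and 0 members (10 and 1 at unadjusted p) and 1150 and 1161 genes. Polyribosomal RNA then called 3 members, 2 of them lower, and 539 and 640 genes. Without mutant 2 and 4 polyribosomal RNA called 9 members, 3 of them higher and the rest lower, and 2582 and 2813 genes. Polyribosomal members higher and lower numbered 5 and 1 with library size alone (2583 and 929 genes) and 2 and 1 with quantile normalization, and 2 were lower without moderation options. At an unadjusted p under 0.05 members higher and lower numbered 7 and 6 with quantile normalization, beside 2443 and 2666 genes. Without moderation options they numbered 6 and 6, beside 2818 and 2593 genes. With the length trend removed, members higher and lower numbered 5 and 7 in total RNA, 5 higher in polyribosomal RNA and 2 higher in efficiency (200 and 406 genes). At an unadjusted p under 0.05 total RNA then had 8 and 8 members, beside 3572 and 3739 genes. Polyribosomal RNA had 9 and 8, beside 2670 and 2774 genes. With the GC trend removed, 5 members were higher in polyribosomal RNA and 1 in efficiency (1358 genes higher). At an unadjusted p under 0.05 polyribosomal RNA then had 10 members higher and 12 lower, beside 2923 and 3001 genes. With length and coding GC trends removed together, total RNA called 6 and 7 members, polyribosomal RNA 5 higher, and efficiency 2 and 3 (385 and 442 genes). At an unadjusted p under 0.05 total RNA then had 9 and 8 members, beside 3501 and 3758 genes. Polyribosomal RNA had 8 and 10, beside 2884 and 3148 genes. The cause was not tested.

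Replicate numbers shared by mutant and wild-type cultures do not pair them: deviations of same-numbered cultures correlated at -0.13 to 0.10. With the replicate number as a block, members higher and lower numbered 10 and 1 in total RNA, 1 and 3 in polyribosomal RNA and 0 and 7 in efficiency, beside 489 and 885 genes in efficiency. At an unadjusted p under 0.05 total RNA then had 17 and 2 members, beside 3513 and 3401 genes. Polyribosomal RNA had 4 and 9, beside 2440 and 2404 genes. With the block and the length trend removed the called members numbered 5 and 4 in total RNA, 2 and 3 in polyribosomal RNA, and 1 and 6 in efficiency (87 and 303 genes in efficiency). At an unadjusted p under 0.05 total RNA had 7 and 7 members, beside 3312 and 3305 genes. Polyribosomal RNA had 7 and 9, beside 2348 and 2381 genes. With the block and the GC trend removed, 4 members were higher in polyribosomal RNA. At an unadjusted p under 0.05, 9 were higher and 11 lower there, beside 2622 and 2665 genes. With the block and both trends removed the called members numbered 3 and 2 in total RNA, 2 and 3 in polyribosomal RNA, and 1 and 3 in efficiency (168 and 187 genes in efficiency). At an unadjusted p under 0.05 total RNA had 7 and 8 members, beside 3168 and 3317 genes. Polyribosomal RNA had 8 and 10, beside 2584 and 2832 genes.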
